A study of Mus musculus with 10 samples.

Results

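Chemokines and their receptors were described in endothelial cell isolates of liver sinusoids (LSEC) from mice on a CDAA diet and on a standard diet. Members were all genes of the arrays whose symbol is Ccl or Cxcl with a number, Ccr or Cxcr with a number, or Ackr1 to Ackr4, plus Cx3cl1, Cx3cr1, Xcl1 and Xcr1. This rule found 55 of 24704 genes, each with 1 probe set: 19 Ccl ligands, 15 ligands of the Cxcl, Cx3cl1 and Xcl1 kind, 17 signalling receptors and 4 atypical receptors. Chemokines are small, mostly secreted proteins that guide leukocytes, and they are held on the endothelial surface by heparan sulfate. Signalling receptors are G protein-coupled receptors of leukocytes and some tissue cells, whereas atypical receptors bind chemokines without G protein signalling and remove or transport them. In the liver, sinusoidal endothelium, Kupffer cells, stellate cells and bile duct epithelium are all known sources of chemokines, and monocytes enter the injured liver mainly through Ccr2.

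Female C57BL/6N mice, 10 weeks of age at the start, were fed for 10 weeks and their cells were measured on 10 Affymetrix arrays. The CDAA group (5 arrays) received a diet with 31% of calories as fat and 1% cholesterol, and the Std group (5 arrays) received a control diet. CDAA is the usual abbreviation of a choline-deficient, amino acid-defined diet, a model of fatty liver with fibrosis. No genetic change was labelled in either group, although the design text of the series speaks of mice lacking Gata4, which are not analysed here. Each array held cells pooled from 3 mice and selected with beads against CD146, so the values describe a selected mixture and not single mice. The labels' field for the length of treatment gives 10 days, against 10 weeks elsewhere in the labels. The question was how the diet changed chemokine transcripts in this isolate.

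The labelled cell type was borne out by its markers, with other cells beside it. The mean log2 value of 12 LSEC markers was 10.23 to 11.27 on the CDAA arrays and 11.70 to 11.89 on the Std arrays, and 10 of them fell. Of 12 markers of endothelium in general, 9 fell (9.88 to 10.96 on the CDAA arrays and 11.19 to 11.35 on the Std arrays). Markers of recruited macrophages were higher with CDAA in 7 of 10 genes (7.34 to 8.57 on the CDAA arrays and 4.89 to 6.46 on the Std arrays), while 6 of 10 Kupffer cell markers fell (7.68 to 8.57 on the CDAA arrays and 8.43 to 9.50 on the Std arrays). All 7 measured bile duct markers rose (7.31 to 8.17 on the CDAA arrays and 4.51 to 5.49 on the Std arrays), as did 7 of 12 stellate cell and fibroblast markers (6.86 to 8.41 on the CDAA arrays and 5.92 to 6.34 on the Std arrays). In none of these 6 lists did a marker lie below the array median of 3.89 in both diets. Of 10 neutrophil markers and 11 markers of T and NK cells (3 of each list below the array median with both diets), 0 passed limma's threshold, and 0 had an unadjusted p below 0.05. Some arrays stood apart from their group. Std 3 had a neutrophil list mean of 9.0, against 3.53 to 3.76 on the other Std arrays and 4.57 to 5.59 on CDAA arrays, and all 10 neutrophil genes were highest there among Std. Std 5 had the highest T and NK cell mean of Std (5.20 against 4.06 to 4.40). Std 1 and CDAA 1 had the highest means of 12 immediate early and dissociation response genes in their groups (9.94 and 10.62). Of these 12 genes 2 rose, Atf3 and Nr4a1, with a median difference of 0.57. Of 9 hepatocyte markers 3 rose and 2 fell (7.33 to 8.41 on the CDAA arrays and 7.15 to 7.73 on the Std arrays). CDAA 1 and CDAA 3 had the highest recruited macrophage means and the lowest pan-endothelial means of CDAA. Fewer cells of a type and less RNA per cell cannot be told apart in such data.

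More chemokine and receptor genes were higher than lower with CDAA. With limma and a threshold of 0.05 on the p adjusted by Benjamini-Hochberg over all genes, 15 of 55 members rose, or 27.3%, against 7.49% of all genes, and 5 of 55 fell, or 9.09%, against 9.13% of all genes. A rise of at least 1 on the log2 scale was seen in 13 members (2.53% of all genes) and a fall of at least 1 in 2 members (1.04% of all genes). The median CDAA minus Std difference was 0.25 over the members and -0.02 over all genes. All 5 CDAA arrays lay above all 5 Std arrays for 9 members (6.16% of all genes) and below them for 4 members (7.73% of all genes). The signal was low for many members: 22 of 55 had a mean below the array median of 3.89 with both diets, and 1 of these, Ccr3, passed the threshold. Signals this low were not known to exceed background. Without CDAA 1 and CDAA 3, 12 members rose and 2 fell. Without Std 3, 17 rose and 3 fell, and without these 3 arrays 16 rose and 3 fell.

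**Figure D1:**
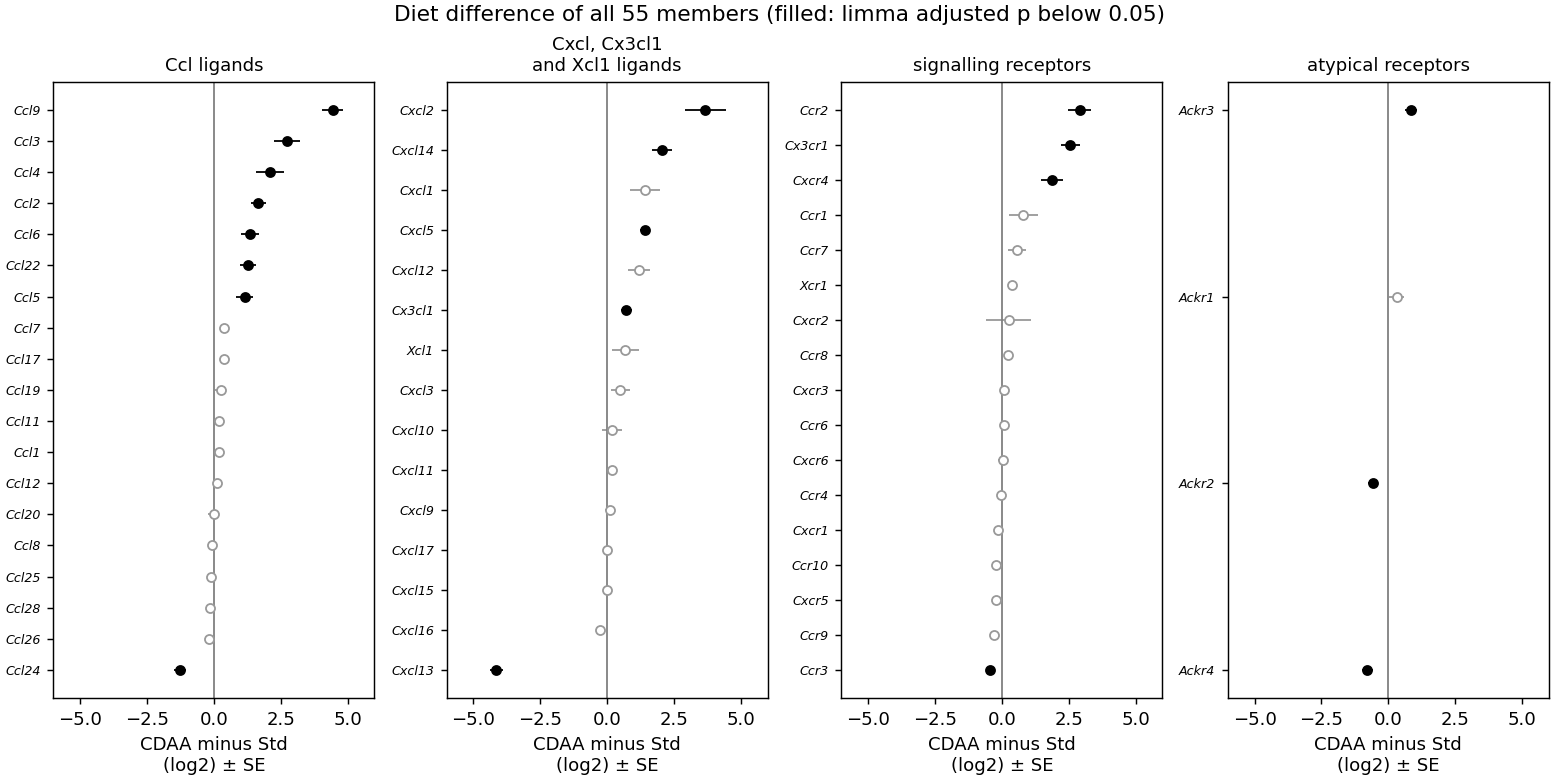
CDAA minus Std difference of all 55 members on the log2 scale (horizontal axis), with bars for the standard error of the limma fit, in 4 panels by role. Filled points passed the adjusted p of 0.05. The rises reach 4.44 for Ccl9 and the falls -4.14 for Cxcl13, and most Ccl and receptor genes sit near 0.

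Among the Ccl ligands, 7 of 19 rose and 1 fell (7.49% and 9.13% of all genes), with a median difference of 0.25. Ccl9 (probe set 20308_at), a myeloid chemokine that acts through Ccr1, had the largest difference of any member. Its log2 values were 10.44, 9.18, 10.59, 8.44 and 9.31 on CDAA 1 to CDAA 5 and 5.10, 5.56, 5.67, 4.40 and 5.02 on Std 1 to Std 5. The lowest CDAA array exceeded the highest Std array by a wide margin, and CDAA 1 and CDAA 3 were the highest. Ccl9 rose by 4.44 ± 0.38 (SE, limma adjusted p = 3.53e-05), a 21.7-fold difference in signal, and by 3.83 without CDAA 1 and CDAA 3.

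Ccl9 lies in a run of 5 genes, Ccl5, Ccl9, Ccl6, Ccl3 and Ccl4, that are immediate neighbours among the protein-coding genes of RefSeq's GRCm38.p6 annotation, and all 5 rose. Ccl3 (20302_at), a macrophage inflammatory protein that attracts monocytes and other leukocytes, had values of 10.46, 8.36, 10.28, 8.45 and 8.74 on CDAA 1 to CDAA 5 and 7.44, 5.44, 7.13, 6.49 and 6.11 on Std 1 to Std 5. The groups did not overlap, and CDAA 1 and CDAA 3 were again the highest. Ccl3 rose by 2.73 ± 0.48 (SE, limma adjusted p = 0.00251). Values of its neighbour Ccl4 (20303_at), which has like activity, were 8.91, 5.71, 8.20, 5.87 and 6.58 on CDAA 1 to CDAA 5 and 5.17, 4.83, 4.76, 5.20 and 4.83 on Std 1 to Std 5. All CDAA arrays lay above all Std arrays, but CDAA 2 and CDAA 4 only slightly. Ccl4 rose by 2.10 ± 0.53 (limma adjusted p = 0.0174), and by 1.10 without CDAA 1 and CDAA 3.

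Ccl6 (20305_at), a myeloid chemokine that shares the receptor of Ccl9, was at 8.77, 7.97, 9.30, 7.59 and 8.30 on CDAA 1 to CDAA 5 and 6.49, 7.44, 7.92, 6.49 and 6.93 on Std 1 to Std 5. Only CDAA 4 fell within the range of Std, below Std 3. The rise of 1.34 ± 0.34 (limma adjusted p = 0.0182) did not pass without Std 1 (1.19) or Std 4 (1.19), nor without CDAA 1 and CDAA 3 (0.90, adjusted p = 0.105). Ccl5 (20304_at), made by T and NK cells and macrophages among others, was at 8.89, 8.55, 8.50, 8.74 and 8.62 on CDAA 1 to CDAA 5 and 7.09, 6.87, 7.31, 7.34 and 8.92 on Std 1 to Std 5. The 5 CDAA arrays were tightly grouped and lay above 4 Std arrays, while Std 5 was higher than all of them. T and NK cell markers were also highest in Std 5 among Std arrays. Their part in the result was not tested. The rise of 1.15 ± 0.31 (limma adjusted p = 0.0236) became 1.51 without Std 5. It did not pass without CDAA 1 (1.10), Std 1 (1.05), Std 2 (0.99) or Std 4 (1.11), nor without CDAA 1 and CDAA 3 (1.13, adjusted p = 0.0933).

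Ccl9 rose more than Ccl6. In each array the log2 value of Ccl9 minus that of Ccl6 was 1.20 ± 0.31 with CDAA and -1.90 ± 0.32 with Std (SD, n = 5), a change of 3.10 that all 5 CDAA arrays showed (two-sided exact permutation p = 0.00794, the smallest possible with 5 against 5, and 0.0238 after adjustment over 6 pairs of members). Ccl9 alone set the diets apart, so this test is no separate support for its rise. For Ccl3 minus Ccl4 the change was 0.63 (exact permutation p = 0.135, adjusted 0.262).

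The sequences of 3 promoters of this run are shown, with those of Cxcl2 and of Cxcl13, the member with the largest fall, because Ccl9, Cxcl2 and Cxcl13 had the largest differences and Ccl6 and Ccl3 are neighbours of Ccl9 that rose less. Each window runs from 250 bases before to 50 bases after the annotated start, from RefSeq (GRCm38.p6), 5′ to 3′ on the gene's strand. The windows are chr11:83578587-83578886 on the minus strand for Ccl9, chr11:83593038-83593337 on the minus strand for Ccl6 and chr11:83649329-83649628 on the minus strand for Ccl3. Those of Cxcl2 and Cxcl13 are chr5:90903649-90903948 on the plus strand and chr5:95956689-95956988 on the plus strand. Capitals mark matches, on either strand, to 1 of 6 motifs. The STAT type motif was searched as TTCNNNGAA and the ETS type motif as GAGGAAGT. For the AP-1 type the letters were TGANTCA. The TATA box was taken as TATAAA, and an NF-kB type motif and an interferon-stimulated element are given by name alone.
Ccl9: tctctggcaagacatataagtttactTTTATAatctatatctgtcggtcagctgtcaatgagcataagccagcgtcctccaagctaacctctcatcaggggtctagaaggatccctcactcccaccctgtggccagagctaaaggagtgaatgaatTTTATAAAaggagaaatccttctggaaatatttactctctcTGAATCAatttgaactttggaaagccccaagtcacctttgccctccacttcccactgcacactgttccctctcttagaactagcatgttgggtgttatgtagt
Ccl6: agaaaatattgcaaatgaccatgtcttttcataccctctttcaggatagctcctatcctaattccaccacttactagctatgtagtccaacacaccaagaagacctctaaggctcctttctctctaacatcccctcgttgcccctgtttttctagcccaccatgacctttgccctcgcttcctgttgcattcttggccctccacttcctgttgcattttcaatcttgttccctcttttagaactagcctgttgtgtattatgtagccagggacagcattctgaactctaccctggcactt
Ccl3: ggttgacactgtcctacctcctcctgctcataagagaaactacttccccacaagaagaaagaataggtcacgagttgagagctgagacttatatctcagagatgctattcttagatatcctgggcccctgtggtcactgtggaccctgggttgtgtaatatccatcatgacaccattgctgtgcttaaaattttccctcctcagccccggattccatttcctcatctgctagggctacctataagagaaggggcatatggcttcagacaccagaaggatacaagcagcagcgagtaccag
Cxcl2: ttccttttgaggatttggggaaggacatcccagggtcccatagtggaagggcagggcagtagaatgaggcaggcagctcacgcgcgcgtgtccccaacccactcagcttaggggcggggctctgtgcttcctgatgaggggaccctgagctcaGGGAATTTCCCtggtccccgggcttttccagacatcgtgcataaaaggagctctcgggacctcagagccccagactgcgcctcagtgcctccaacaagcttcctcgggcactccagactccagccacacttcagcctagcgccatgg
Cxcl13: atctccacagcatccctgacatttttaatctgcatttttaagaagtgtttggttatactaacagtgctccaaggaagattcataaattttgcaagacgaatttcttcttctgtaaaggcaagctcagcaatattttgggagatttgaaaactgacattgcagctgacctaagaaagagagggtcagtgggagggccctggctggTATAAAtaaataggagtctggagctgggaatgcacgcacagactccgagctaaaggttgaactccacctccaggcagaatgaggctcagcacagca

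The window of Ccl9 held an AP-1 type match and 3 TATA box matches (-224, -94 and -92 from the annotated start), 2 of them overlapping. Those of Ccl6 and Ccl3 held none of these letters. In Cxcl2 the NF-kB type motif matched at 2 overlapping places, and Cxcl13 had 1 TATA box match (-46 from the annotated start). Across the table, 41 members had a promoter entry, and 6 of these, Ccl1, Ccr3, Cxcl1, Cxcl10, Cxcl2 and Cxcl3, held the NF-kB type motif, against 1.47% of all 32851 promoters. Of these 6 genes, Cxcl2 rose, Ccr3 fell and the other 4 did not pass. The TATA box motif was in 13 of the 41 members and 13.6% of all promoters, and the AP-1 type motif in 6 members and 7.81%. The interferon-stimulated element and the STAT type motif were in 3 members each (3.44% and 8.3% of promoters), and the ETS type motif in 1 member (3.2%). A match is a description of letters, not a sign of binding, and no match says only that these letters are not in the window.

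A second run of neighbours behaved differently. In the run Ccl2, Ccl7, Ccl11, Ccl12, Ccl8 and Ccl1, only Ccl2 passed. Ccl2 (20296_at), the main attractant of Ccr2-bearing monocytes, was at 7.52, 5.98, 6.76, 6.24 and 6.46 on CDAA 1 to CDAA 5 and 5.72, 4.96, 4.41, 4.89 and 4.67 on Std 1 to Std 5. The groups did not overlap, and CDAA 1 was highest with CDAA and Std 1 with Std. Ccl2 rose by 1.66 ± 0.29 (SE, limma adjusted p = 0.0024). Within each diet the immediate early mean was highest on the same array, and its part in the result was not tested. The other 5 genes of the run differed by -0.07 to 0.38 and had means below the array median with both diets. Ccl7, a further Ccr2 ligand, differed by 0.38 ± 0.14 (limma adjusted p = 0.0928) and passed without CDAA 4 (0.46).

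Ccl22 (20299_at), a product of macrophages and dendritic cells that attracts Ccr4-bearing T cells, was at 5.44, 3.66, 5.06, 3.98 and 3.78 on CDAA 1 to CDAA 5 and 3.23, 2.94, 3.23, 3.10 and 3.02 on Std 1 to Std 5. All CDAA arrays were above all Std arrays, with CDAA 1 and CDAA 3 well above the other CDAA arrays. The Std mean of 3.11 lay below the array median of 3.89, as did CDAA 2 and CDAA 5. Ccl22 rose by 1.28 ± 0.31 (limma adjusted p = 0.0133), and by 0.70 without CDAA 1 and CDAA 3. Its neighbour Ccl17, also a Ccr4 ligand, differed by 0.36 ± 0.13 (limma adjusted p = 0.0845) at low signal and passed without CDAA 2 (0.44). Ccl24 (56221_at), an eosinophil attractant, was the only Ccl gene that fell. It was at 4.44, 5.41, 5.36, 5.16 and 5.28 on CDAA 1 to CDAA 5 and 6.20, 6.74, 6.60, 5.66 and 6.76 on Std 1 to Std 5. No CDAA array reached the range of Std, and CDAA 1 was far below the others. Ccl24 fell by 1.26 ± 0.23 (limma adjusted p = 0.00343). Ccl25, the gut-homing ligand of Ccr9, was at 3.97 ± 0.41 with CDAA and 4.07 ± 0.05 with Std (SD, n = 5). The remaining Ccl genes (Ccl19, Ccl20, Ccl26 and Ccl28) differed by -0.19 to 0.25 and did not pass.

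**Figure D2:**
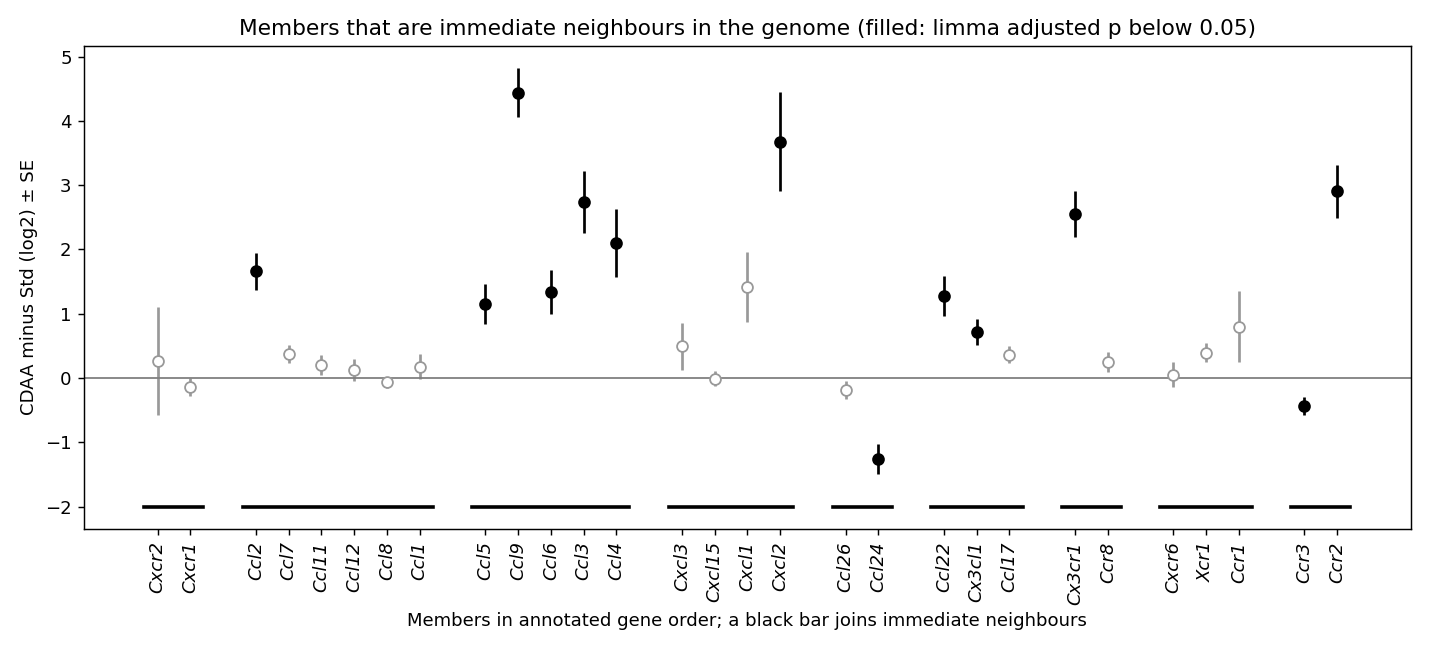
CDAA minus Std difference (vertical axis, log2, with the standard error) of the 29 members that are immediate neighbours of another member, in annotated order, with a black bar under each of 9 runs. Filled points passed the adjusted p of 0.05. All 5 genes from Ccl5 to Ccl4 rose, whereas 1 of 6 genes from Ccl2 to Ccl1 did.

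Among the Cxcl, Cx3cl1 and Xcl1 ligands, 4 of 15 rose and 1 fell (7.49% and 9.13% of all genes), with a median difference of 0.49. Cxcl13 (55985_at), which attracts B cells through Cxcr5, was at 4.34, 3.59, 4.35, 4.25 and 4.38 on CDAA 1 to CDAA 5 and 8.46, 8.92, 8.49, 7.48 and 8.25 on Std 1 to Std 5. Every CDAA array was more than 3 units below every Std array, and no member had a smaller adjusted p. Cxcl13 fell by 4.14 ± 0.24 (SE, limma adjusted p = 4.98e-06), and by 4.24 without CDAA 1 and CDAA 3. Kupffer cell markers fell in the same arrays (6 of 10, list means above). Their part in the result was not tested. The value of Cxcl12 minus that of Cxcl13 changed by 5.33 between diets (exact permutation p = 0.00794, adjusted 0.0238, n = 5). Cxcl13 alone set the diets more than 3 units apart, so this test is no separate support for its fall.

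Of the ligands of Cxcr2, the main chemokine receptor of neutrophils, Cxcl2 and Cxcl5 rose and Cxcl1 and Cxcl3 did not pass. Cxcl2 (20310_at) was at 9.87, 7.27, 9.36, 8.13 and 7.88 on CDAA 1 to CDAA 5 and 3.91, 4.12, 7.99, 4.66 and 3.45 on Std 1 to Std 5. Std 3 stood inside the CDAA range, while the other 4 Std arrays lay below every CDAA array. Cxcl2 rose by 3.68 ± 0.77 (SE, limma adjusted p = 0.00692) and by 4.47 without Std 3. It did not pass without CDAA 1 and CDAA 3 (2.93, adjusted p = 0.0541), but did when Std 3 was left out as well (3.72). Cxcl5 (20311_at), a neutrophil attractant of epithelial and other cells, was at 4.56, 4.46, 4.59, 3.93 and 4.90 on CDAA 1 to CDAA 5 and 3.22, 3.41, 2.95, 3.22 and 2.59 on Std 1 to Std 5. The groups did not overlap, at signals that lay below the array median with Std. Cxcl5 rose by 1.41 ± 0.19 (limma adjusted p = 0.000475), and its highest array was CDAA 5. Cxcl1 was at 8.38, 5.49, 6.95, 5.50 and 5.57 on CDAA 1 to CDAA 5 and 6.14, 4.17, 4.97, 5.01 and 4.48 on Std 1 to Std 5. Its highest arrays were CDAA 1 and CDAA 3 with CDAA and Std 1 with Std, and 3 CDAA arrays lay within the Std range. By limma, Cxcl1 differed by 1.42 ± 0.54 (SE) and missed the threshold (adjusted p = 0.1). Cxcl3 and Cxcl15, neighbours of Cxcl1 and Cxcl2, differed by 0.49 and -0.01 below the array median.

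Cxcl14 (57266_at), a chemokine of epithelium and fibroblasts, was at 8.21, 6.57, 8.62, 6.35 and 7.26 on CDAA 1 to CDAA 5 and 5.25, 5.21, 5.44, 5.21 and 5.54 on Std 1 to Std 5. The 5 Std values were nearly equal and every CDAA value exceeded them. Cxcl14 rose by 2.07 ± 0.37 (SE, limma adjusted p = 0.00289). Bile duct and fibroblast markers rose in the same arrays (7 of 7 and 7 of 12). Their part in the result was not tested. Cx3cl1 (20312_at), a membrane-anchored ligand of endothelium and epithelium, was at 5.17, 4.67, 5.26, 4.89 and 4.08 on CDAA 1 to CDAA 5 and 4.41, 3.99, 4.13, 3.92 and 4.03 on Std 1 to Std 5. CDAA 5 lay in the Std range and the other 4 CDAA arrays above it. Its rise of 0.72 ± 0.20 (limma adjusted p = 0.027) did not pass without CDAA 1 (0.63), CDAA 3 (0.61), Std 2 (0.69), Std 4 (0.67) or Std 5 (0.70), nor without CDAA 1 and CDAA 3 (0.45, adjusted p = 0.153).

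Cxcl12 (20315_at), the stromal ligand of Cxcr4 and Ackr3, was at 8.63, 7.35, 9.0, 6.63 and 8.09 on CDAA 1 to CDAA 5 and 6.96, 7.11, 5.91, 6.57 and 7.18 on Std 1 to Std 5. CDAA 4 lay in the Std range and the other 4 CDAA arrays above it. By limma, Cxcl12 differed by 1.20 ± 0.40 and missed the threshold (adjusted p = 0.0636), which it passed without CDAA 4 (1.52). Cxcl16, a membrane-bound ligand of Cxcr6 that also binds oxidised lipoprotein, was at 10.81 ± 0.08 with CDAA and 11.05 ± 0.09 with Std (SD, n = 5). All its CDAA arrays were below all Std arrays, but by only -0.25 ± 0.09, which missed limma's threshold (adjusted p = 0.0722). Cxcl9 and Cxcl10, interferon-induced ligands of Cxcr3, were at 10.12 ± 0.40 with CDAA and 10.01 ± 0.27 with Std (SD, n = 5) and at 7.99 ± 0.65 with CDAA and 7.80 ± 0.78 with Std (SD, n = 5). Their groups overlapped, with differences of 0.11 ± 0.19 and 0.19 ± 0.38 (limma adjusted p = 0.781 and 0.81). Cxcl10 was highest in CDAA 1 (9.14) and Std 1 (9.18), and at 7.27 to 7.78 elsewhere. The immediate early mean was 10.62 on CDAA 1 and 9.94 on Std 1, the highest within each diet, and 10.08 on CDAA 3. Its part in the result was not tested. Xcl1, a ligand made by T and NK cells, was at 7.30, 4.90, 6.62, 4.98 and 5.04 on CDAA 1 to CDAA 5 and 4.91, 4.60, 4.88, 4.63 and 6.37 on Std 1 to Std 5. Its values were highest on CDAA 1, CDAA 3 and Std 5, and by limma it differed by 0.69 ± 0.49 without passing (adjusted p = 0.411). Cxcl11 and Cxcl17 differed by 0.18 and -0.01.

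**Figure D3:**
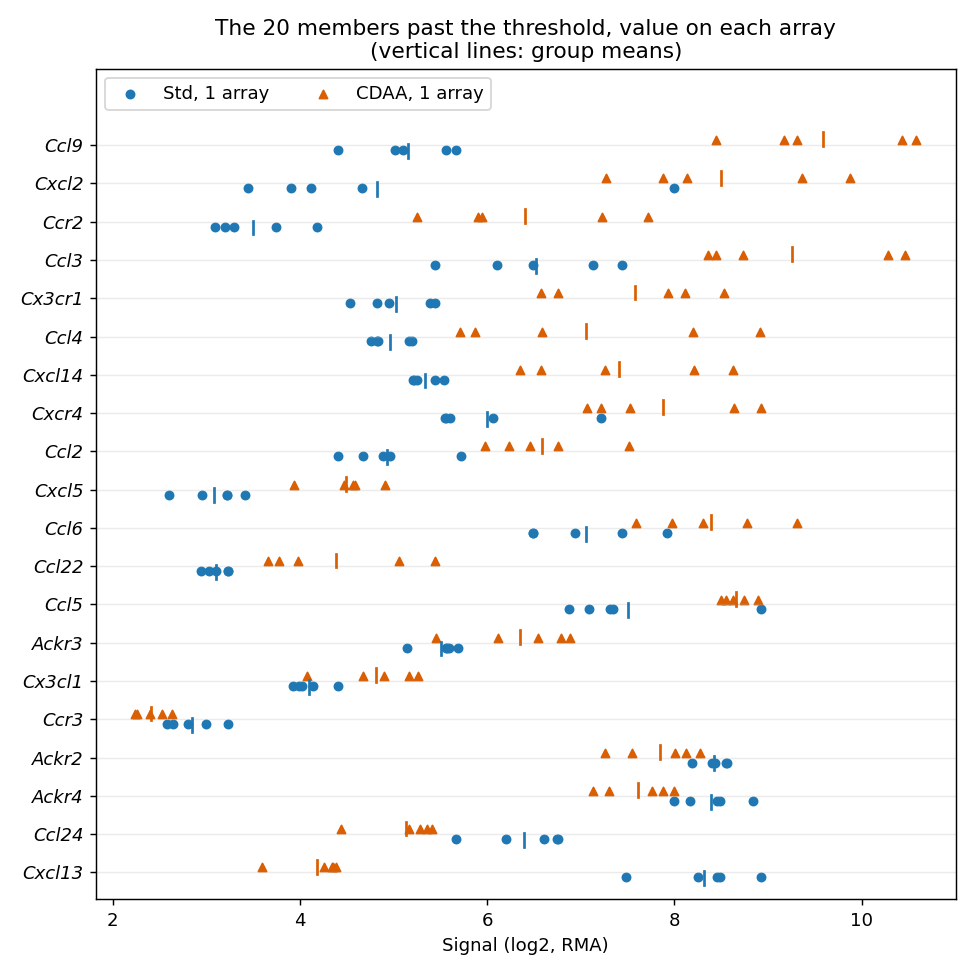
Log2 signal (horizontal axis) of the 20 members past the adjusted p of 0.05, with 1 point per array (circles for Std, triangles for CDAA) and a line at each group mean. For Ccl9, Ccr2, Cx3cr1 and Cxcl13 the groups are fully apart, whereas Std 3 lies inside the CDAA range for Cxcl2 and Std 5 above it for Ccl5.

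Among the signalling receptors, 3 of 17 rose and 1 fell (7.49% and 9.13% of all genes), with a median difference of 0.09. Of the 17 receptors, 9 had means below the array median with both diets. Ccr2 (12772_at), the receptor by which monocytes leave the marrow and enter tissue, was at 7.22, 5.25, 7.71, 5.90 and 5.94 on CDAA 1 to CDAA 5 and 3.75, 3.29, 4.18, 3.20 and 3.09 on Std 1 to Std 5. All CDAA arrays were above all Std arrays, and only Std 3 lay above the array median within Std. Ccr2 rose by 2.90 ± 0.41 (SE, limma adjusted p = 0.00073). Cx3cr1 (13051_at), the Cx3cl1 receptor of monocytes and macrophages, was at 8.12, 6.76, 8.53, 6.57 and 7.93 on CDAA 1 to CDAA 5 and 4.96, 4.82, 5.45, 4.53 and 5.39 on Std 1 to Std 5. The groups did not overlap. Cx3cr1 rose by 2.55 ± 0.35 (limma adjusted p = 0.0006). For Ccr2 minus Cx3cr1 the within-array value changed by 0.35 (exact permutation p = 0.317, adjusted 0.381, n = 5). Within each diet both were highest in CDAA 3 and Std 3, as was the recruited macrophage list, of which 7 of 10 genes rose. On Std 3, Itgam, Ly6c2 and Chil3 were at 9.47, 9.15 and 9.04, against at most 5.68, 5.88 and 2.99 on other Std arrays. These were the 3 list genes that did not pass, and the neutrophil mean of Std was also highest there (9.0). The part of the recruited macrophage list in the result was not tested.

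Cxcr4 (12767_at), the Cxcl12 receptor of leukocytes and of some endothelium, was at 8.64, 7.06, 8.92, 7.22 and 7.53 on CDAA 1 to CDAA 5 and 5.55, 5.56, 7.21, 6.06 and 5.60 on Std 1 to Std 5. CDAA 2 lay just below Std 3, and all other CDAA arrays exceeded every Std array. Cxcr4 rose by 1.88 ± 0.41 (SE, limma adjusted p = 0.00824), and by 2.18 without Std 3 and 1.27 without CDAA 1 and CDAA 3. Ccr3 (12771_at), the eosinophil receptor of Ccl24, fell by 0.44 ± 0.14 (limma adjusted p = 0.047) at a signal of 2.41 ± 0.17 with CDAA and 2.85 ± 0.27 with Std (SD, n = 5), below the array median on every array. This call was lost without CDAA 1 (-0.46), CDAA 3 (-0.40), CDAA 4 (-0.43), CDAA 5 (-0.39), Std 3 (-0.34), Std 4 (-0.45) or Std 5 (-0.40) and without CDAA 1 and CDAA 3 (-0.42).

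The calls for Cxcr2 and Ccr1 turned on Std 3. Cxcr2 (12765_at) was at 6.10, 6.08, 6.74, 5.74 and 5.54 on CDAA 1 to CDAA 5 and 5.12, 4.11, 9.75, 5.06 and 4.85 on Std 1 to Std 5. Its highest value of all was that of Std 3, and every CDAA array exceeded the other 4 Std arrays. The difference was 0.26 ± 0.84 over all arrays (limma adjusted p = 0.887) and 1.26 without Std 3 (adjusted p = 0.00777). Ccr1 (12768_at), the receptor of Ccl6 and Ccl9 on neutrophils, monocytes and macrophages, was at 4.96, 4.20, 5.25, 4.22 and 3.80 on CDAA 1 to CDAA 5 and 3.11, 2.97, 6.10, 2.79 and 3.45 on Std 1 to Std 5. Std 3 was again the highest array and the other Std arrays lay below every CDAA array. Its difference was 0.80 ± 0.55 (limma adjusted p = 0.391) and 1.40 without Std 3 (adjusted p = 0.00567). With that array and CDAA 1 and CDAA 3 left out, the differences of Cxcr2 and Ccr1 were 1.00 and 0.99 (adjusted p = 0.0248 and 0.00561). All 10 neutrophil markers were highest in Std 3 among Std arrays, S100a8 at 11.65 and Ngp at 10.90. Their part in the result was not tested.

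Ccr7, the receptor that guides cells to lymph nodes, was at 5.33 ± 0.78 with CDAA and 4.76 ± 0.50 with Std (SD, n = 5) and missed limma's threshold (adjusted p = 0.319). Xcr1, a receptor of cross-presenting dendritic cells, differed by 0.39 ± 0.15 (limma adjusted p = 0.105) and passed without CDAA 4 (0.50). Cxcr6, the receptor of Cxcl16, and Ccr9, the gut-homing receptor, differed by 0.05 and -0.28 at means below the array median. The other receptors (Ccr4, Ccr6, Ccr8, Ccr10, Cxcr1, Cxcr3 and Cxcr5) differed by -0.23 to 0.25 and did not pass.

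Of the 4 atypical receptors, 1 rose and 2 fell (7.49% and 9.13% of all genes), and all had means above the array median. Ackr4 passed whichever single array was left out, and Ackr2 and Ackr3 did not. Ackr4 (252837_at), which removes Ccl19, Ccl21 and Ccl25, was at 7.30, 7.76, 7.13, 7.88 and 7.99 on CDAA 1 to CDAA 5 and 8.17, 8.45, 7.99, 8.49 and 8.84 on Std 1 to Std 5. All CDAA arrays lay below all Std arrays, although CDAA 5 nearly met Std 3, the lowest Std array. Ackr4 fell by 0.78 ± 0.20 (SE, limma adjusted p = 0.0167) and did not pass without CDAA 1 and CDAA 3 (-0.51, adjusted p = 0.094). Ackr2 (59289_at), a scavenger of inflammatory CC chemokines, was at 7.55, 8.12, 7.26, 8.28 and 8.0 on CDAA 1 to CDAA 5 and 8.56, 8.19, 8.55, 8.44 and 8.40 on Std 1 to Std 5. CDAA 4 lay in the Std range and CDAA 1 and CDAA 3 far below it. The fall of 0.58 ± 0.18 (limma adjusted p = 0.0423) was lost without CDAA 1 (-0.51), CDAA 3 (-0.44), CDAA 5 (-0.63), Std 1 (-0.55), Std 3 (-0.55), Std 4 (-0.58) or Std 5 (-0.59), and was 0.29 without CDAA 1 and CDAA 3 (adjusted p = 0.149).

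Ackr3 (12778_at), the scavenger of Cxcl12, was at 6.11, 6.79, 5.45, 6.54 and 6.88 on CDAA 1 to CDAA 5 and 5.57, 5.56, 5.59, 5.15 and 5.69 on Std 1 to Std 5. CDAA 3 lay in the Std range and the other CDAA arrays above it. The rise of 0.84 ± 0.24 (SE, limma adjusted p = 0.0296) was lost without CDAA 2 (0.74), CDAA 4 (0.80), CDAA 5 (0.71), Std 1 (0.86), Std 2 (0.86) or Std 4 (0.75), and was 1.23 without CDAA 1 and CDAA 3 (adjusted p = 0.000627). For Cxcr4 minus Ackr3, both Cxcl12 receptors, the within-array value changed by 1.03 (exact permutation p = 0.175, adjusted 0.262, n = 5). Ackr1 (13349_at), known from red cells and venular endothelium, was at 5.99, 6.98, 5.74, 7.23 and 7.06 on CDAA 1 to CDAA 5 and 6.06, 6.39, 6.81, 6.04 and 6.12 on Std 1 to Std 5. CDAA 2, CDAA 4 and CDAA 5 exceeded every Std array, and CDAA 1 and CDAA 3 were below every Std array. By limma, Ackr1 differed by 0.32 ± 0.28 and missed the threshold (adjusted p = 0.532), and the value was 0.81 without CDAA 1 and CDAA 3 (adjusted p = 0.016).

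Within CDAA the order of the arrays differed between members. CDAA 1 and CDAA 3 were the highest arrays for 26 of 55 members, or 47.3%, against 14.8% of all genes. Some of these members, such as Ccl1, Ccr9 and Cxcl15, had means below the array median with both diets. CDAA 1 and CDAA 3 were the lowest for 5 members, Ackr1 to Ackr4 and Cxcl9, or 9.09%, a smaller share than the 18.3% of all genes. Among the 15 members that rose, CDAA 1 and CDAA 3 were the highest for 12 (80.0%, against 48.9% of all genes that rose), the exceptions being Ccl5, Cxcl5 and Ackr3. The pan-endothelial means were 10.26 and 9.88 on CDAA 1 and CDAA 3 and 10.67 to 10.96 on the other CDAA arrays. Recruited macrophage means were 8.45 and 8.57, against 7.34 to 7.62. The part of cell mixture in these orders was not tested.

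**Figure D4:**
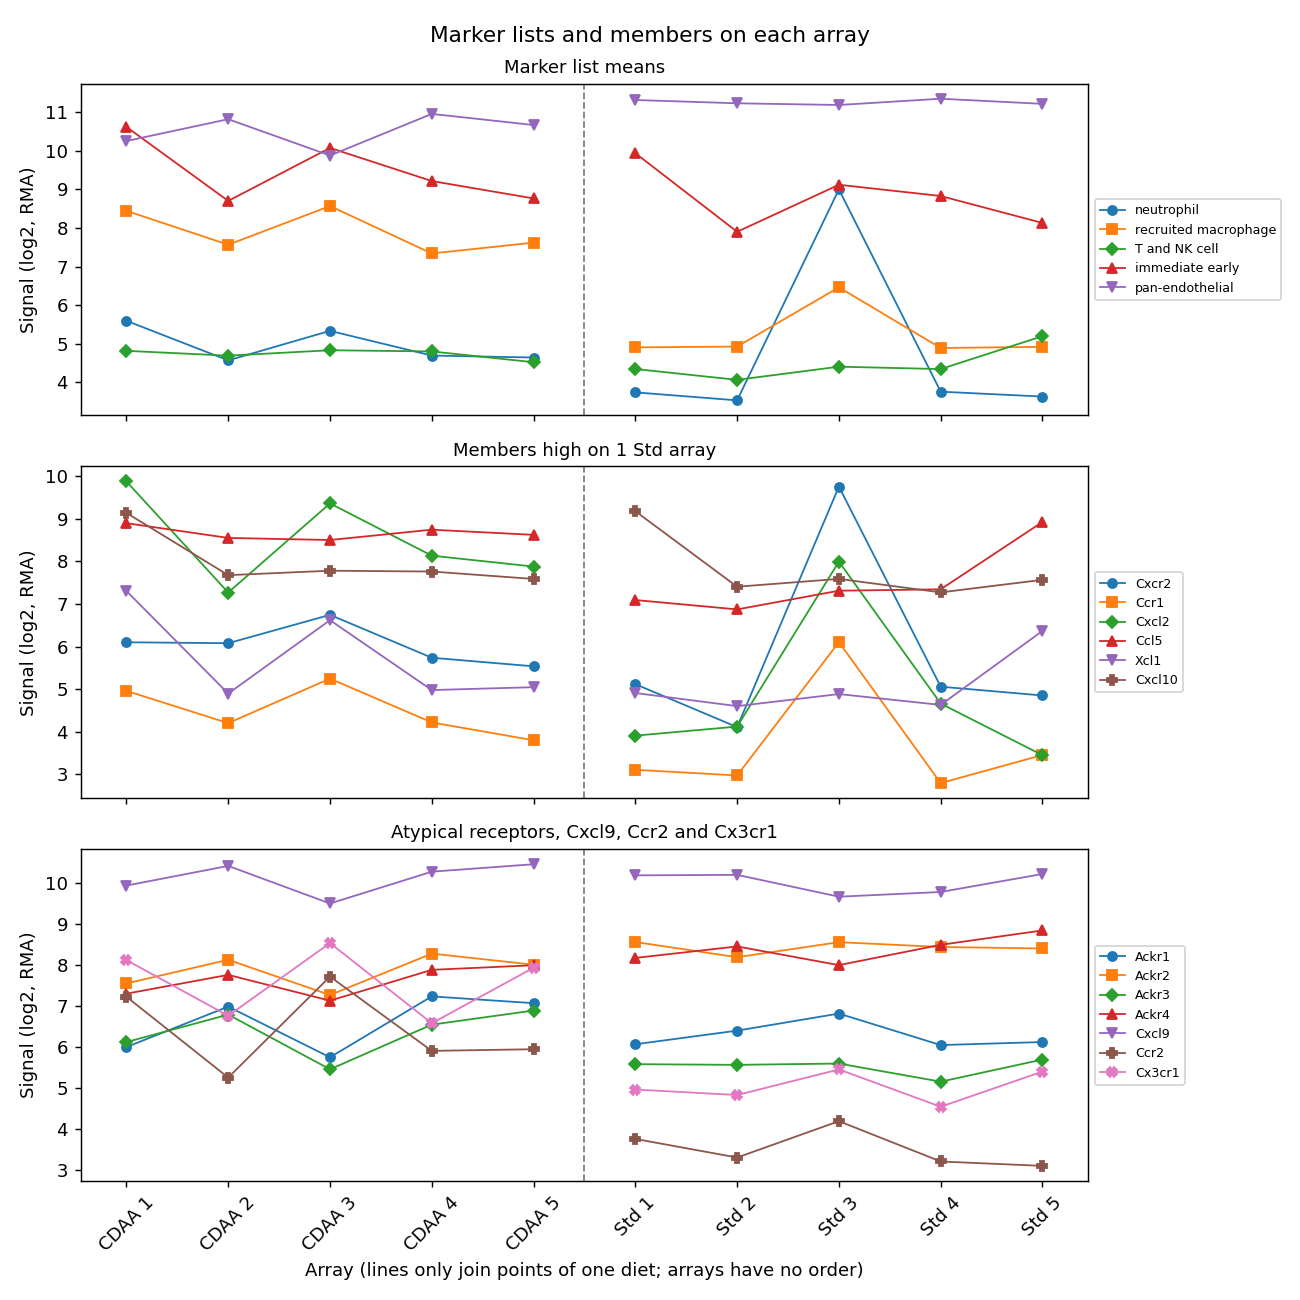
Log2 signal (vertical axis) on each of the 10 arrays, CDAA at left and Std at right, for 5 marker list means (top), 6 members that were high on 1 Std array (middle) and the atypical receptors, Cxcl9, Ccr2 and Cx3cr1 (bottom). Among Std arrays, Std 3 holds the peaks of the neutrophil list, Cxcr2, Ccr1 and Cxcl2, and the atypical receptors dip on CDAA 1 and CDAA 3, where Ccr2 is highest.

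Ligands were also set beside the receptors they bind. Of 28 pairs with both genes measured, both rose in 2 pairs, Ccl2 with Ccr2 and Cx3cl1 with Cx3cr1. Ccl24 and its receptor Ccr3 both fell, but Ccr3 lay below the array median and lost its call in 12 of 19 other settings. In 5 pairs the ligand rose and the receptor did not pass: Ccl6 and Ccl9 with Ccr1, Ccl22 with Ccr4, and Cxcl2 and Cxcl5 with Cxcr2. Of these receptors, Ccr1 and Cxcr2 were higher with CDAA and passed without Std 3 (1.40 and 1.26), and Ccr4 had means below the array median with both diets. In 4 pairs the receptor rose and the ligand did not pass: Ccl7 and Ccl12 with Ccr2, and Cxcl12 with Cxcr4 and with Ackr3. Cxcl13 fell by 4.14 while Cxcr5 differed by -0.23 ± 0.13 (limma adjusted p = 0.272). Neither gene of 14 pairs passed, among them Cxcl9, Cxcl10 and Cxcl11 with Cxcr3. In the other pair Ccr3 fell and its ligand Ccl11 did not pass.

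Other genes that act with chemokines were taken from a list of 26, of which 25 were measured. Of these, 8 rose and 2 fell (7.49% and 9.13% of all genes), with a median difference of 0.42. Rgs1, which shortens G protein signals of chemokine receptors in leukocytes, was at 10.78, 8.45, 10.86, 8.65 and 9.05 on CDAA 1 to CDAA 5 and 6.94, 7.08, 6.83, 6.27 and 5.98 on Std 1 to Std 5. The groups were fully apart, and Rgs1 rose by 2.94 ± 0.46 (SE, limma adjusted p = 0.00134). Its relative Rgs2 rose by 1.59 ± 0.21. Cd74, the class II invariant chain that also binds Mif, rose by 1.51 ± 0.18. Mif, a cytokine that also signals through Cxcr2 and Cxcr4, rose by 1.14. Dock2, which drives leukocyte migration, rose by 1.19, and Ccrl2, which binds chemerin and not the usual chemokines, by 1.19. Dpp4, the protease that trims Cxcl12, fell from a Std mean of 11.42 to 10.41, by 1.02 ± 0.18 (limma adjusted p = 0.00281). The list's mean ranged over 7.41 to 8.06 on the CDAA arrays and 6.97 to 7.49 on the Std arrays. Leukocytes also express these genes, and their part in the result was not tested.

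Genes that build or carry heparan sulfate changed in both directions: of 15 measured, 6 rose and 5 fell (7.49% and 9.13% of all genes), with a median difference of -0.06. In the same arrays 7 of 7 bile duct and 7 of 12 stellate cell markers rose and 9 of 12 pan-endothelial markers fell, and their part in the result was not tested. The core protein Sdc4 rose by 1.53 ± 0.15 (limma adjusted p = 8.61e-05) and its relative Sdc2 by 1.23 ± 0.17. Sulf2, which removes sulfate groups from heparan sulfate outside the cell, rose by 1.42 ± 0.26, while its relative Sulf1 fell by 0.34 ± 0.11. Sdc1, Ext1 and Hs3st1 also rose, and Glce, an epimerase of heparan sulfate synthesis, fell by 0.91 ± 0.21 with Sdc3, Hspg2 and Ext2.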

How the data were processed

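Expression was measured on 10 arrays, 5 pools of mice per diet. The authors deposited log2 values from RMA (robust multi-array average), per the submitters' processing notes. RMA removes background, gives all arrays the same distribution and summarises each probe set, and its settings are not given in the sources used here. Scanner files are not used here, so background correction could not be varied. The number of distinct values was 24921 on CDAA 1 and 10080 on each of the others, for a reason not known here.

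Of 25428 probe sets, 24705 had 1 gene symbol in the platform annotation, 0 had several and 723 had none. The probe set with the highest mean was kept per gene, which left 24704 genes. Diets were compared with lmFit and eBayes of limma 3.58.1 (R 4.3.3) in two-sided tests, adjusting p over all genes by Benjamini-Hochberg. Differences are CDAA minus Std on the log2 scale, and array signals near background understate changes. Each replicate is a pool, and the tests therefore weigh differences against variation among pools, whose number limits the precision. Other settings were a second quantile normalization, median centring, filters on dim genes, a trended robust fit, array weights, probe set means, a test against 0.5, the replicate number as a block, and arrays left out. Probe sequences were not used, so signal shared between similar members was not assessed. The members and lists were chosen with earlier results of these data known. Members past the threshold with a difference of at least 1 were named with every array, along with a fixed set whatever their value, the remaining called members and the 5 uncalled ones of smallest p. Up to 6 partner and 4 heparan sulfate genes of largest change were named, and Dpp4, Sulf1 and the other heparan sulfate genes after their values were seen. Of the 55 members, 41 had a promoter in the RefSeq table, and promoter motifs were picked with the members known, after other letter patterns had been looked at. On simulated data with 200 of 24704 genes changed, the fit recovered 25% of changes of 0.5, 86.5% of changes of 1 and 98.5% of changes of 2 on the log2 scale.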

Additional observations from a re-analysis of the deposited data

Results flagged for a closer look

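By Dixon's criterion for 5 arrays, an extreme array stood apart where over 0.71 of the range in its diet lay between it and its neighbour. Of 110 groups (55 members in 2 diets), 13 had such an array, and chance gives about 1 in 20 groups. On Std 3, Cxcr2 was at 9.75 (other arrays of the diet 4.11 to 5.12), Cxcl2 at 7.99 (other arrays of the diet 3.45 to 4.66), Ccr1 at 6.10 (other arrays of the diet 2.79 to 3.45) and Ccl12 at 3.40 (other arrays of the diet 2.38 to 2.58). On Std 5, Ccl5 was at 8.92 (other arrays of the diet 6.87 to 7.34) and Xcl1 at 6.37 (other arrays of the diet 4.60 to 4.91). Cxcl10 stood apart on Std 1, at 9.18 (other arrays of the diet 7.27 to 7.59), and on CDAA 1, at 9.14 (other arrays of the diet 7.59 to 7.78). Ackr3 was low on Std 4, at 5.15 (other arrays of the diet 5.56 to 5.69). CDAA 1 was low for Ccl24, at 4.44 (other arrays of the diet 5.16 to 5.41), and for Cxcr3, at 3.99 (other arrays of the diet 4.47 to 4.59). CDAA 2 was low for Cxcl13, at 3.59 (other arrays of the diet 4.25 to 4.38), and for Cxcl17, at 2.71 (other arrays of the diet 3.03 to 3.15).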

How the results depend on the processing

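Of the 20 called members, 8 passed under every other setting run (Ccl2, Ccl3, Ccl9, Ccr2, Cx3cr1, Cxcl5, Cxcl13 and Cxcl14, with Cxcl5 absent from the fit on genes above the median), and no called member changed sign. A test against a difference of 0.5 called 9 members (8 risen, 1 fallen), 3 Ccl genes, 2 signalling receptors, 0 atypical receptors, 4 partner and 2 heparan sulfate genes, and 452 of all genes. Counts of fallen members were 3 with array weights, 2 without CDAA 1 and CDAA 3, 3 when Std 3 was left out too, and 3 to 5 over single arrays left out. Without CDAA 1 and CDAA 3, 2612 genes, 3 of the Cxcl, Cx3cl1 and Xcl1 ligands and 6 partner genes passed, and 2689 genes without Std 3 as well, a fit chosen after seeing the data. Leaving out single arrays gave 1 to 2 called atypical receptors and 6 to 12 partner genes. Quantile normalization again, median centring, probe set means and the trend fit moved no count past 1.5 times. Removing genes below the median added Cxcl12 and Cxcl16. Replicate numbers were not taken as a pairing, which asked for every same-number correlation of deviations to exceed 0.1. All 5 were positive (0.02 to 0.25 over genes), 3 exceeded 0.1, and 3 of 5 CDAA arrays matched their own number best, a hint from the data and not from the design. With the replicate number as a block, 3 members fell and 17 rose, Cxcl1 and Cxcl3 passing (adjusted p = 0.00461 and 0.0285) and Ackr2 and Ccr3 not (0.0672 and 0.0985). The within-array changes of Ccl9 minus Ccl6 and Cxcl12 minus Cxcl13 were 3.10 and 5.33 with that block. They were 2.92 and 4.86 without CDAA 1 and CDAA 3, and 2.84 and 4.61 without Std 3 too. For both pairs the adjusted p was 0.125 with the block (sign-flip test), and 0.0536 and 0.0857 in the other fits (exact permutation test). The sign-flip test over 5 numbers cannot give a p below 0.0625, so neither pair could pass there. Fewer arrays also raise the smallest p of the permutation test, so these p-values do not measure a loss of support. Cxcl9 minus Cxcl10 changed sign, to 0.50 without CDAA 1 and CDAA 3 and 0.47 without Std 3 too, and was -0.38 to 0.25 over single arrays left out. Uncalled members changed sign too, among them Xcl1, Ccr7 and Cxcl3, which differed by 0.69, 0.57 and 0.49 over all arrays: without CDAA 1 and CDAA 3, Cxcl10 (-0.13), Cxcl3 (-0.036), Cxcr6 (-0.14) and Xcl1 (-0.10). With Std 3 out too these were Ccl1 (-0.065), Ccr6 (-0.022), Ccr7 (-0.036), Cxcl10 (-0.18), Cxcr6 (-0.069) and Xcl1 (-0.15). With array weights they were Ccr4 (0.037) and Cxcr6 (-0.0049). Ranges over single arrays left out spanned 0 for Ccl20 (-0.14 to 0.068), Ccl25 (-0.22 to 0.064), Ccr4 (-0.061 to 0.056), Ccr6 (-0.0011 to 0.14), Cxcl10 (-0.10 to 0.53), Cxcl15 (-0.088 to 0.028), Cxcl17 (-0.041 to 0.068), Cxcr2 (-0.16 to 1.26) and Cxcr6 (-0.079 to 0.13). The cause of these changes was not tested.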

Other observations

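Of 7 B and plasma cell markers 2 rose, Jchain and Sdc1, and 0 fell. Ms4a1, Cd79a, Cd79b and Pax5, genes of B cells, had differences of 0.10, 0.21, 0.07 and -0.10, none past limma's threshold, while Jchain, a gene of plasma cells, rose by 2.19 ± 0.43 (SE, limma adjusted p = 0.00506) and Sdc1, which epithelium also expresses, by 0.66 ± 0.14 (limma adjusted p = 0.00676). Among dendritic cell markers Zbtb46, which some endothelium also expresses, fell by 0.86 ± 0.17 (limma adjusted p = 0.00464). Flt3 and Cd209a had differences of 0.86 and 0.78, short of the threshold. The platelet chemokines Pf4 and Ppbp differed by 0.51 ± 0.28 and -0.87 ± 0.29 (limma adjusted p = 0.259 and 0.0608), and of 7 platelet markers 0 passed by limma, with 1 at an unadjusted p below 0.05.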
